A study of Mus musculus with 2 samples.

Results

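Chromatin accessibility at the BMP, activin and ID genes was examined by ATAC-seq. In this assay a transposase cuts open DNA, so that reads pile up where chromatin is accessible. The set held 38 genes. A gene entered through the rows of the deposited peak table that carry its symbol, and the read densities of those rows were summed per gene. Peaks were assigned to 30 of the 38 genes, 103 peaks in all, of 43864 peaks with a gene symbol at 16934 genes. Bmp2, Bmp5, Bmp7, Gdf5, Gdf10, Inha, Inhbb and Nog had no assigned peak. Distal intergenic peaks carry no symbol in the table (0 of 19430), so a gene without an assigned peak may still have open chromatin farther away.

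Both libraries came from primary cardiac fibroblasts of mouse hearts, and both received TGF-β (per the study's legend 5 ng/ml over 24 h). One, labelled NC, carried scrambled siRNA per the same legend, and the other siRNA against Piezo2, a mechanosensitive cation channel (SiPiezo2). Each condition had 1 library. No difference below therefore has a replicate check and no test of the conditions was made. The methods put the study's mouse strains on a C57BL/6 J background. The age of the mice that gave these cells, and whether animals were pooled, are not given in the sources used here. The description deposited for the whole series names a Tet3 knockout made with Cre in place of an siRNA, and the groups here follow the sample labels. Of 10 fibroblast markers, 8 had assigned peaks, among them Pdgfra, Tcf21 and Col1a1, while Thy1 and Lum had none.

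BMPs, activins and growth differentiation factors are secreted ligands of the TGF-β superfamily. They assemble type I and type II serine/threonine kinase receptors, which phosphorylate SMAD transcription factors, and extracellular antagonists such as noggin, gremlin and follistatin keep the ligands from the receptors. The ID genes are direct transcriptional targets of BMP signalling, and ID proteins bind basic helix-loop-helix factors and keep them off DNA. In fibrosis research, BMP signalling is often studied as a counterweight to TGF-β.

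Accessibility at these genes lay at about the level of all genes, which was slightly below 0 with the scaling of the deposited densities and near or above 0 with other scalings. A few loci stood lower than that level. The receptor gene Bmpr1b and the secreted-protein gene Fstl1 were lower at every peak, those called in both libraries included. The receptor gene Acvr1, and Chrdl1 with the lowest ratio of the set, were lower through peaks called in the NC library only, which entered the table through the library where they are high. Of the ID genes, Id1 was the one whose counting interval lay below the level of all genes, through the peak at its transcription start. No gene of the set was higher past 1.5-fold. Values are normalized read densities, in reads per 1000 bp of a 2000-bp window around each peak summit, and log2 ratios are log2((SiPiezo2 + 1)/(NC + 1)) of the summed densities.

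The windows of all 63316 peaks held 4615335 reads in the NC library and 2754046 in the SiPiezo2 library, with medians of 58 and 36 reads per window. At the 103 peaks of the BMP, activin and ID genes, a window held 26 to 306 reads in NC (median 69) and 12 to 128 in SiPiezo2 (median 40). The 95% intervals given here are exact binomial (Clopper-Pearson) intervals from these reads and cover counting error only. Peaks called in both libraries varied 2.12 times as much as counting error, so a widened interval, with each arm 1.46 times as long, is given where it matters. The median log2 ratio over all genes was -0.09, so a value near it is the level of a typical gene. At Piezo2 itself, 14 peaks summed to densities of 334 in NC and 242 in SiPiezo2, a log2 ratio of -0.46 (95% counting interval -0.64 to -0.29). An siRNA acts on the transcript, so this value does not check the knockdown. Marker lists of other cell types also had peaks, at 6 of 7 endothelial, 5 of 6 mural, 4 of 6 leukocyte, 3 of 7 cardiomyocyte and 4 of 4 epicardial genes. Tie1, Kcnj8, Cd68, Adgre1, Myh6, Nppa, Tnni3 and Myl2 were the ones without a peak. The summed density of the fibroblast list was 1325 in NC and 1237 in SiPiezo2. That of the other lists went from 526 to 521 (endothelial), 479 to 397 (mural), 230 to 207 (leukocyte), 146 to 152 (cardiomyocyte) and 113 to 108 (epicardial). Of the marker genes with a peak, 2 were lower past 1.5-fold, the mural gene Rgs5 at 127 and 56.0 (-1.16) and the epicardial gene Wt1 at 55.6 and 36.2 (-0.61), and 2 were higher, the endothelial gene Cdh5 at 47.7 and 78.0 (0.70) and the epicardial gene Krt19 at 14.4 and 23.6 (0.68). Over all genes, 6.6% were lower and 1.54% higher past that fold. Genes of the same lists went other ways, with Erg (endothelial) at -0.37, Cspg4 and Abcc9 (mural) at 0.16 and 0.09. The fibroblast collagen genes Col1a1 and Col1a2 stood at -0.44 (counting interval -0.73 to -0.15) and -0.50 (-0.79 to -0.21). The other fibroblast markers with a peak ran from -0.49 (Postn) to 0.21 (Dcn). The median of that list was -0.10, beside -0.09 over all genes. The part of these marker differences in the values below was not tested.

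Over the 30 genes with a peak, the median log2 ratio was -0.11 (order-statistic 95% interval -0.29 to -0.03), beside -0.09 over all genes. The ratio was below 0 at 23 of the 30 genes (76.7%) and above 0 at 7, where 62.6% of all genes were below 0. The 3 other ways to scale the densities moved the median of all genes from -0.09 to between -0.01 and 0.05, and with them 13 to 17 of the 30 genes were below 0. Past 1.5-fold, 3 of the 30 genes (10%) were lower, namely Chrdl1, Bmpr1b and Fst, where 6.6% of all genes were. Chrdl1 alone kept the call with the 3 other scalings, where 3.58% to 4.54% of all genes were lower. With the deposited scaling none of the 30 was higher past 1.5-fold, where 1.54% of all genes were. Per peak, 16 of 103 (15.5%) were lower past 1.5-fold against 12.8% of all peaks with a symbol, and 0 were higher against 2.82%. These shares lie close to those of all genes and peaks.

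A second count used the intervals. The counting interval lay wholly below the median of all genes at 6 of 30 genes (20%), Acvr1, Bmper, Bmpr1b, Chrdl1, Fstl1 and Id1, where 9.01% of all genes were so placed. It lay wholly above at 0 of 30, where 8.47% of all genes did. With the widened interval, Acvr1, Bmpr1b and Fstl1 were left below, 3 of 30 (10%) against 3.47% of all genes, and 0 were above against 2.72%. Genes with more peaks have more reads and narrower intervals. The 30 genes had 3.43 peaks each on average, and all genes 2.59, with a median of 2 for both. With peaks called in both libraries alone, the widened interval lay below at 3 of 21 genes, Bmpr1b, Fstl1 and Id1 (2.85% of all genes), and with promoter peaks alone at 0 of 17 (1.56%). With separate windows kept from the lowest position up, it lay below at Bmpr1b alone of the 30 (2.68%), and with windows kept from the highest position down at 4, Acvr1, Bmpr1b, Fstl1 and Id1 (2.64%).

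**Figure D1:**
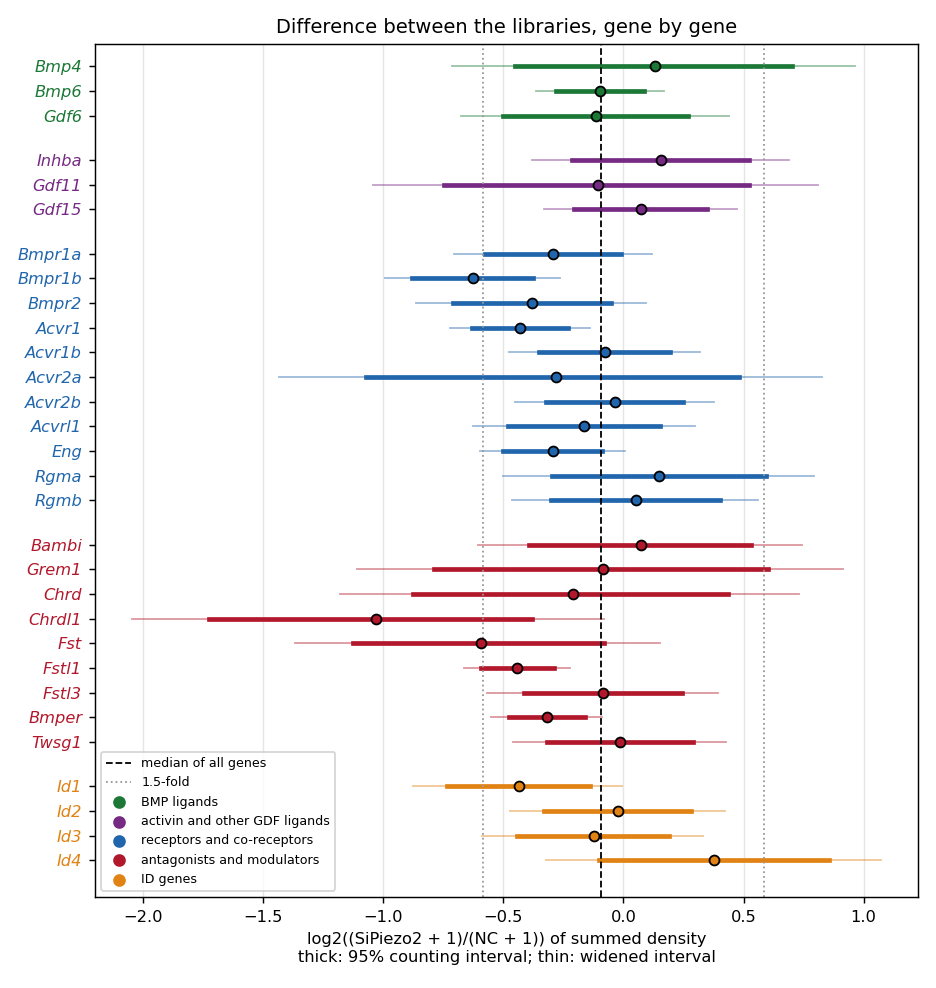
Log2 ratio of SiPiezo2 to NC (x axis) for each of the 30 genes with a peak, coloured by role. Thick bars are 95% counting intervals, thin bars the widened ones, the dashed line the median of all genes (-0.09) and dotted lines 1.5-fold. Bmpr1b, Acvr1 and Fstl1 lie left of the dashed line with both bars, and Id4 (0.38) is the highest.

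Among the BMP ligands, Bmp4, Bmp6 and Gdf6 had peaks, and none differed by more than its counting error. Bmp6, a ligand best known for its part in iron regulation, had 7 peaks whose densities summed to 267 in NC and 249.7 in SiPiezo2, a log2 ratio of -0.10. Its promoter peak (chr13:38528880-38529169, 59 bp upstream of the start) was among the 5 highest ratios, at 30.5 in NC and 38.0 in SiPiezo2 (0.31, counting interval -0.20 to 0.82). The 5 peaks in intron 1 had densities of 28.4 to 68.3 in NC and 30.8 to 59.9 in SiPiezo2, and 4 of them were lower in SiPiezo2. Bmp4 had a promoter peak only, with 26.2 in NC and 28.8 in SiPiezo2 (0.13), and the 2 peaks of Gdf6 summed to 63.5 and 58.7 (-0.11). Bmp2, Bmp5, Bmp7, Gdf5 and Gdf10 had no assigned peak.

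The activin and GDF ligands also stayed near the level of all genes. Inhba encodes the βA subunit shared by activin A and inhibin A. Its 2 peaks summed to 61.4 in NC and 68.6 in SiPiezo2, a log2 ratio of 0.16 (-0.21 to 0.52). They lay at 2 annotated starts and differed in direction, the first at 38.2 and 46.4 (0.27) and the second at 23.3 and 22.3 (-0.06). The stress-induced cytokine gene Gdf15 had 3 peaks that summed to 111 and 117 (0.07). Gdf11, a ligand close to myostatin, had 1 exon peak at 24.1 in NC and 22.3 in SiPiezo2 (-0.10). Inha and Inhbb, which encode further inhibin and activin subunits, had no assigned peak.

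Of the 11 receptor and co-receptor genes with peaks, 9 were below 0, beside 62.6% of all genes. Their median was -0.28, with an order-statistic interval of -0.43 to 0.05 that holds the level of all genes. With median-of-ratios scaling Acvr1b and Acvr2b were above 0 as well (0.06 and 0.10), where the median of all genes was 0.04. Bmpr1b, a type I BMP receptor, was lower past 1.5-fold. Its 8 peaks summed to 183 in NC (427 reads) and 118 in SiPiezo2 (192 reads), a log2 ratio of -0.62 (counting interval -0.88 to -0.38, widened interval -0.99 to -0.26). All 8 peaks were lower in SiPiezo2, with ratios from -1.03 to -0.18. The lowest was an intron 7 peak called in both libraries (chr3:141562905-141563312), with 39.6 in NC and 18.97 in SiPiezo2. The peak at its first start (chr3:141874917-141875266, annotated as 5′ UTR) had 29.3 and 20.0 (-0.53, counting interval -1.18 to 0.09). Without the intron 7 peak the other 7 gave -0.52, and the scaling alternatives put the gene between -0.54 and -0.41. The gene stood below the median of all genes by this measure, while the call past 1.5-fold held only with the scaling of the deposited densities.

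Acvr1, a type I receptor for BMPs and activins, had 11 peaks that summed to 259 in NC (608 reads) and 192 in SiPiezo2 (311 reads). The log2 ratio was -0.43 (counting interval -0.63 to -0.23, widened interval -0.72 to -0.14). The difference sat in 3 intron peaks. An intron 2 peak (chr2:58387123-58387449) had the lowest ratio of all 103 peaks, with 29.7 in NC and 7.55 in SiPiezo2, or 68 and 12 reads (-1.85, counting interval -2.87 to -0.95). A second intron 2 peak (chr2:58374403-58374751) had 40.6 and 20.9 (-0.93), and an intron 1 peak (chr2:58395763-58396094) had 32.8 and 16.3 (-0.97). All 3 were called in the NC library only. The 5′ UTR peak had 16.2 in NC and 16.4 in SiPiezo2 (0.01), and the other 7 peaks lay between -0.44 and 0.11. Without the lowest peak the gene stood at -0.31. Its 3 peaks called in both libraries gave 0.03, its 4 peaks within 10 kb of a start -0.05, and recovered reads at the same total -0.22.

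**Figure D2:**
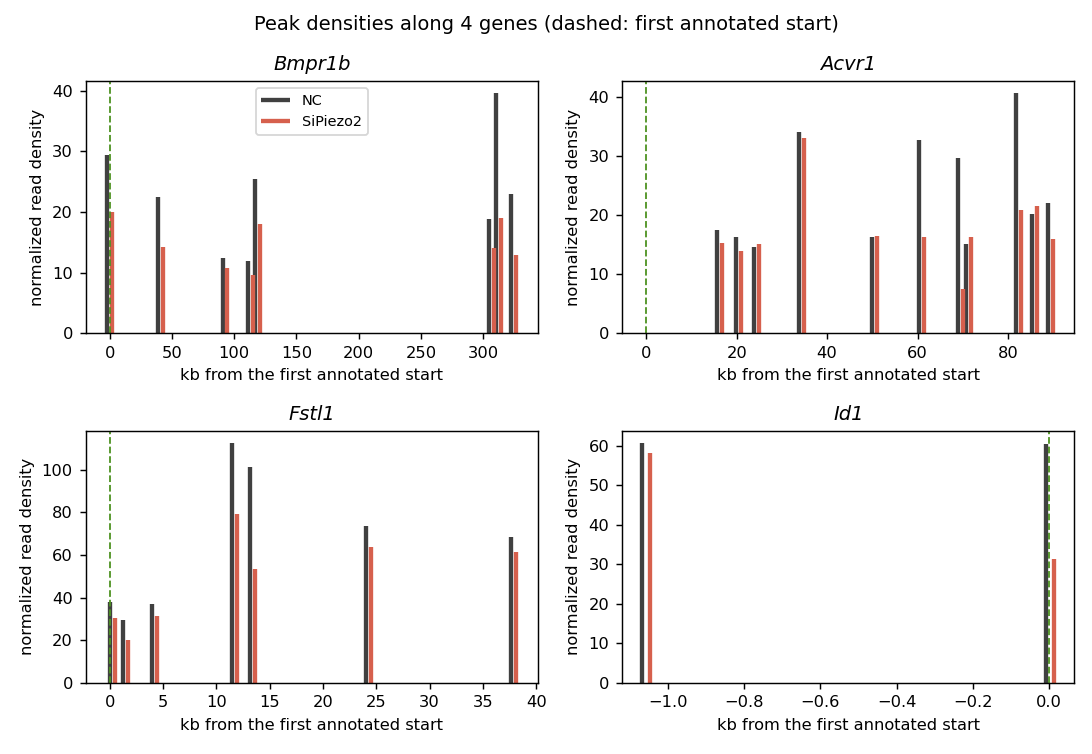
Normalized read density (y axis) of each peak of Bmpr1b, Acvr1, Fstl1 and Id1 against its distance from the first annotated start in kb (x axis), with NC and SiPiezo2 bars side by side. All 8 Bmpr1b peaks are lower in SiPiezo2, whereas in Acvr1 3 intron peaks carry the difference and in Id1 only the peak at the start does.

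The other type I receptor genes were closer to the median of all genes. Bmpr1a had 5 peaks that summed to 124 in NC and 101 in SiPiezo2 (-0.29, counting interval -0.58 to -0.01). An intron 1 peak (chr14:34205410-34205866) accounted for most of it, at 40.4 and 19.6 (-1.004, counting interval -1.64 to -0.41). The promoter peak had 30.02 and 29.6 (-0.02). All 5 peaks were called in NC only. Acvr1b, the activin type I receptor, had 4 peaks at 121 and 115 (-0.08), with its promoter peak at 20.0 and 24.6 (0.29). Acvrl1, a type I receptor best known in endothelium, had 3 peaks that summed to 93.6 and 83.6 (-0.16). These peaks differed among themselves. The one 1549 bp upstream of a start had 43.9 in NC and 28.8 in SiPiezo2 (-0.59), the promoter peak 28.3 and 24.4 (-0.21), and an intron 9 peak (chr15:101037412-101037612) 21.4 and 30.4, the highest ratio of all 103 peaks (0.49, counting interval -0.11 to 1.08).

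Among the type II receptor genes, Bmpr2 had 4 peaks at 96.7 in NC and 74.1 in SiPiezo2 (-0.38, counting interval -0.71 to -0.05). Its 5′ UTR peak had 41.8 and 26.8 (-0.62), and the neighbouring intron 1 peak, 1377 bp from the start and with an overlapping window, had 23.8 and 27.4 (0.19). Acvr2a had 1 peak, at 18.0 and 14.6 (-0.28), whose 41 and 24 reads leave an interval from -1.07 to 0.48. Acvr2b had 4 peaks at 109 and 106 (-0.03).

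Eng encodes endoglin, a co-receptor that endothelial cells and activated fibroblasts carry. Its 5 peaks summed to 230.4 in NC and 188 in SiPiezo2 (-0.29, counting interval -0.50 to -0.09, widened interval -0.60 to 0.01). An intron 12 peak was the strongest of them, with 107 and 88.1 (-0.28), and the promoter peak had 32.8 and 29.1 (-0.17). The BMP co-receptor genes of the RGM family were above 0. Rgma had 42.8 and 47.6 (0.15) and Rgmb 70.2 and 72.8 (0.05), each with 2 peaks and with counting intervals that hold the median of all genes.

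**Figure D3:**
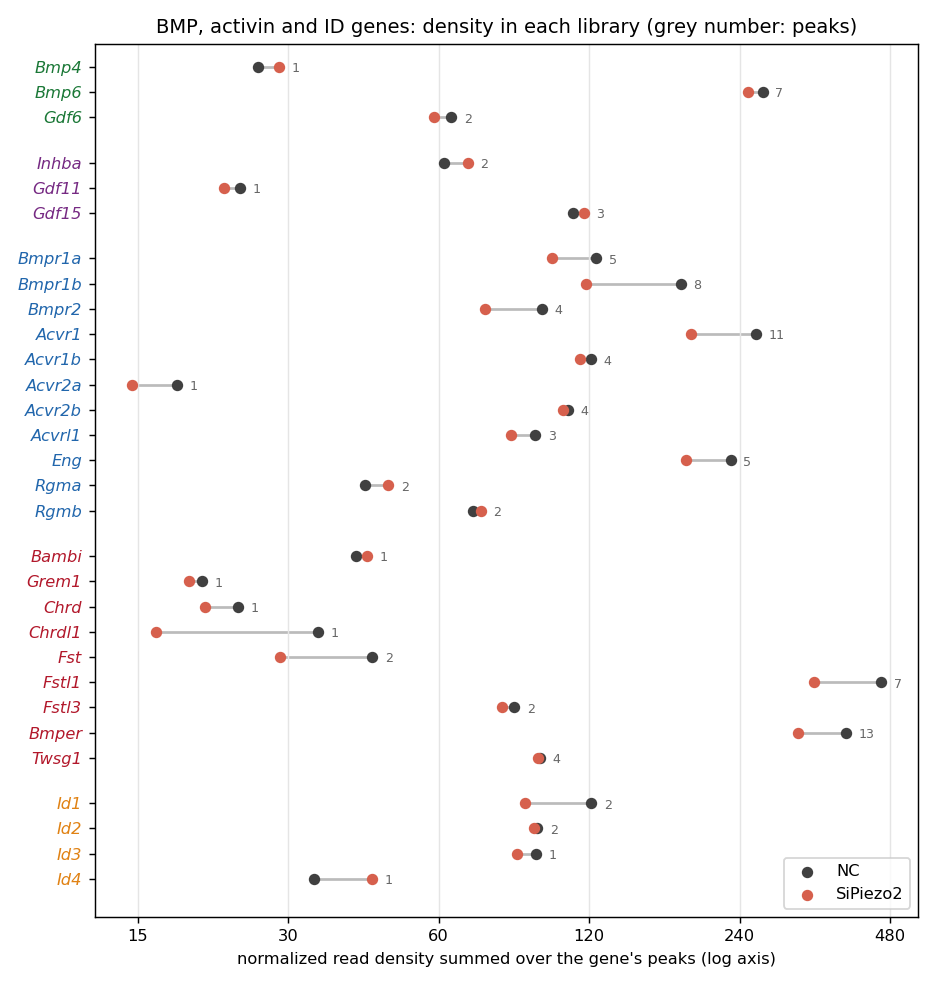
Normalized read density summed over each gene's peaks (x axis, log scale) in the NC library (dark) and the SiPiezo2 library (red), with the number of peaks beside each gene. The points of most genes nearly coincide, and Chrdl1 (34.4 and 16.3) has the widest gap.

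The antagonists and modulators held 2 of the 3 genes that were lower past 1.5-fold, Chrdl1 and Fst. These were 22.2% of the 9 with peaks, beside 6.6% of all genes. Both were lower through peaks called in NC only, and with the other scalings Chrdl1 alone kept the call. Of the 9 with peaks, 8 were below 0, beside 62.6% of all genes, with a median of -0.21 (order-statistic interval -0.59 to -0.01). With median-of-ratios scaling Twsg1, Grem1 and Fstl3 were above 0 (0.13, 0.05 and 0.05), where the median of all genes was 0.04. Fstl1 encodes a secreted follistatin-like glycoprotein made by cardiac fibroblasts. Its 7 peaks summed to 461 in NC (1204 reads) and 339 in SiPiezo2 (510 reads), a log2 ratio of -0.44 (counting interval -0.59 to -0.29, widened interval -0.66 to -0.22). All 7 were lower in SiPiezo2. An intron 2 peak (chr16:37610260-37610924) had 101 in NC and 53.3 in SiPiezo2 (-0.91, counting interval -1.29 to -0.55). Its neighbour (chr16:37608642-37609147), 1698 bp away and therefore counted in part from the same reads, had 113 and 79.0 (-0.51). The promoter peak had 38.1 and 30.6 (-0.31, counting interval -0.84 to 0.21). Without the first intron 2 peak the other 6 gave -0.33 (counting interval -0.50 to -0.16).

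Chrdl1, a chordin-like BMP antagonist, had the lowest ratio of any gene in the set, from 1 intron 3 peak (chrX:142127559-142128015). That peak had 34.4 in NC (82 reads) and 16.3 in SiPiezo2 (26 reads), a log2 ratio of -1.03 (counting interval -1.73 to -0.38, widened interval -2.04 to -0.08). It was lower past 1.5-fold with every scaling tried. The peak was called in the NC library only, so the gene has no value from peaks called in both libraries, and it has none from promoter peaks or peaks within 10 kb of a start. Fst, which encodes the activin antagonist follistatin, had 2 weak peaks that summed to 44.2 and 28.9 (102 and 47 reads), a log2 ratio of -0.59. Its counting interval, -1.12 to -0.08, reached the median of all genes. Both peaks were called in NC only. The scaling alternatives put the gene between -0.51 and -0.36, short of 1.5-fold. The peak 1887 bp upstream of the start had 21.9 and 11.1 (-0.92), and the intron 1 peak by the start had 22.3 and 17.9 (-0.30).

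Bmper, a secreted BMP-binding regulator, had the most peaks of the set, 13, which summed to 391 in NC and 313.5 in SiPiezo2 (-0.32, counting interval -0.48 to -0.16, widened interval -0.55 to -0.09). Of the 13 peaks 12 were below 0, the lowest in intron 11 (chr9:23309229-23309545) at 34.4 and 20.1 (-0.75). The promoter peak had 35.3 and 24.6 (-0.50), and the 5′ UTR peak, whose window overlaps it, 34.9 and 25.9 (-0.41). The remaining antagonist genes were near the level of all genes. Twsg1 (95.8 and 94.9, -0.01), Fstl3 (85.0 and 80.2, -0.08) and Grem1 (20.2 and 19.01, -0.08) differed little. Chrd had 23.7 and 20.4 (-0.21), and Bambi, a decoy receptor gene induced by TGF-β, had 40.9 and 43.2 (0.07). Within Fstl3 the peaks went opposite ways, an intron 1 peak at 40.4 and 24.8 (-0.68) and an intron 3 peak at 44.6 and 55.4 (0.31). In Twsg1, the 5′ UTR peak was the 1 peak of the 103 that was called in the SiPiezo2 library only, at 18.8 and 23.9 (0.33), and an intron 3 peak had 23.4 and 29.9 (0.34). Nog, which encodes noggin, had no assigned peak.

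The log2 ratios of the 4 ID genes ran from -0.43 (Id1) to 0.38 (Id4). The counting intervals of Id1 and Id4 did not overlap (-0.74 to -0.14 and -0.10 to 0.85). Their widened intervals did (-0.87 to -0.004 and -0.32 to 1.07). Differences between the ID genes were not tested. Id1 had 2 peaks that summed to 121 in NC (311 reads) and 89.4 in SiPiezo2 (136 reads), a log2 ratio of -0.43 (counting interval -0.74 to -0.14, widened interval -0.87 to -0.004). The peak at the start (chr2:152577969-152578378, annotated as 5′ UTR) had 60.5 and 31.2 (-0.93, counting interval -1.43 to -0.46, widened interval -1.66 to -0.24). The upstream peak (chr2:152576959-152577271), 1056 bp before the start, had 60.7 and 58.2 (-0.06, counting interval -0.45 to 0.33). Both were called in both libraries. Their summits lie 1058 bp apart, so the windows overlap and share reads, and the gene stood at -0.06 with the upstream peak alone. The widened interval of the summed value holds the median of all genes.

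At the other ID genes the peaks by the start were not lower past 1.5-fold. Id2 had 57.1 and 56.7 at its promoter peak (-0.01) and 37.4 and 36.4 at a peak 1749 bp upstream (-0.04). Id3 had 1 assigned peak, in the 5′ UTR, with 94.0 and 86.1 (-0.12, counting interval -0.44 to 0.19). Id4 had the highest log2 ratio of the 30 genes, 0.38, from 33.7 in NC and 44.1 in SiPiezo2 at its promoter peak (chr13:48414170-48414609). The counting interval of Id4, -0.10 to 0.85, just left the median of all genes inside.

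The 250 bases upstream of the RefSeq start are shown for the ID genes with an entry in the RefSeq promoter table (GRCm38.p6). These genes were chosen as textbook BMP-SMAD targets, each with a peak at its start. Id1 had no entry, so its promoter is not shown. Capitals mark matches, on either strand, to GGCGCC (a GC-rich SMAD element), CAGAC (the SMAD box) and GGAATG (a TEAD site). The stretches are chr12:25096093-25096342 on the minus strand for Id2, chr4:136143572-136143821 on the plus strand for Id3 and chr13:48260866-48261115 on the plus strand for Id4, all written 5′ to 3′ and all in the GRCm38 build, while peak positions are in GRCm39.
Id2: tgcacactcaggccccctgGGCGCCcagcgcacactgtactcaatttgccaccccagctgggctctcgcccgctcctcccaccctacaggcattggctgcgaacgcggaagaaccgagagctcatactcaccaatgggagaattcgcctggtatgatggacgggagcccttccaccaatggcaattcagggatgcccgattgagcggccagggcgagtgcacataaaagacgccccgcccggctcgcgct
Id3: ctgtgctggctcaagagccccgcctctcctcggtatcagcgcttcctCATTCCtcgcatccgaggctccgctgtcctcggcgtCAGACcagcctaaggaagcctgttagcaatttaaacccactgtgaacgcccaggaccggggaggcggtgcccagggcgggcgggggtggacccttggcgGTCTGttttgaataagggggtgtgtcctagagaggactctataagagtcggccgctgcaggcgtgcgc
Id4: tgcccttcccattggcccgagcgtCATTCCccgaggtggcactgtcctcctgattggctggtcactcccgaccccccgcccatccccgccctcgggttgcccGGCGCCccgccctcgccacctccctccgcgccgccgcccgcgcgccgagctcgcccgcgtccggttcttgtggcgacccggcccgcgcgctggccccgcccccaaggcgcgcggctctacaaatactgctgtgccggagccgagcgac

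Id2 held 1 GGCGCC, 231 to 226 bases before the start. Id3 held no GGCGCC but 2 SMAD boxes, at 167 to 163 and 68 to 64 bases before the start, and 1 TEAD match at 203 to 198. Id4 held 1 GGCGCC at 148 to 143 and 1 TEAD match at 226 to 221. No match of one motif overlapped one of another in these stretches. Over the set, 27 of 38 genes had an entry, with 32 promoters, some genes having more than 1 start. GGCGCC stood in 7 of the 32, beside 9.59% of all 32851 promoters of the table. The genes were Bmpr1a, Bmpr2, Chrd, Grem1, Id2, Id4 and Rgmb. This motif holds G and C only. G and C made up 62.8% of the Id2 and Id3 stretches and 75.6% of the Id4 stretch, beside a median of 52.4% over all promoters. The counts were not corrected for this. CAGAC stood in 16 of 32 (42.2% of all) and GGAATG in 3 of 32 (12.6% of all), those of Gdf15, Id3 and Id4. AP-1 (TGANTCA), CRE (TGACGTCA) and CArG box matches were found in 0 of 32, where 6.75%, 1.55% and 1.47% of all promoters held one. A match describes the letters and not a bound site.

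Across the set, peaks away from gene starts lay lower than those at the starts. Of the 103 peaks, 33 lay within 1 kb of a start, at 28 genes, with a median log2 ratio of -0.10 beside -0.04 for all such peaks. The 70 farther peaks had a median of -0.22 beside -0.17 for all such peaks. Of the 16 peaks lower past 1.5-fold, 3 lay within 1 kb (9.09% of the 33, beside 6.92% of all such peaks) and 13 beyond (18.6% of the 70, beside 15.9%), and they belonged to 11 genes. The 18 peaks in the annotation class of promoters within 1 kb had a median of -0.02, beside -0.03 for that class over all genes. Introns held 68 of the peaks, with a median of -0.22 beside -0.17 for all intron peaks, and 12 of them (17.6%) were lower past 1.5-fold, beside 15.6% of all intron peaks. The pattern by distance was thus shared with the rest of the table.

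**Figure D4:**
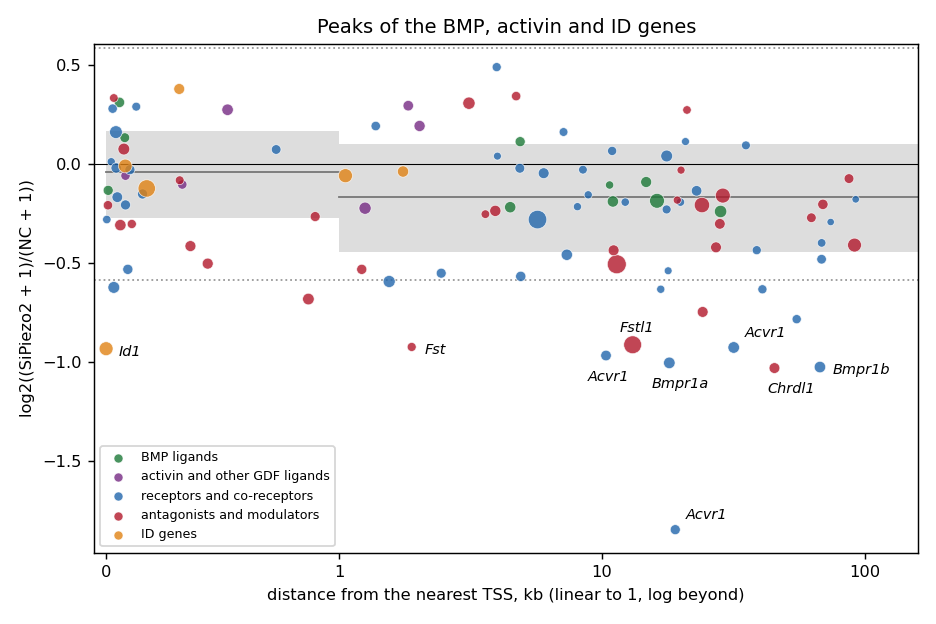
Log2 ratio of each of the 103 peaks (y axis) against its distance from the nearest start in kb (x axis, linear to 1 kb and log beyond), coloured by role, with point area growing with the NC reads. Grey bands and lines are the quartiles and medians of all peaks within and beyond 1 kb, and dotted lines are 1.5-fold. 9 low peaks carry their gene's name, and no peak passes 1.5-fold upwards.

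Which library a peak was called in moved with its ratio. Of the 103 peaks, 65 (63.1%) were called in NC only, 37 in both and 1 in SiPiezo2 only, and over all peaks with a symbol 61.2% were called in NC only. The peaks called in NC only had a median of -0.24 beside -0.22 for all of that kind, and 13 of the 65 (20%) were lower past 1.5-fold, beside 18% of all. Those called in both had a median of -0.06 beside 0.01, and 3 of the 37 (8.11%) were lower past 1.5-fold, beside 4.93% of all. A peak called only in NC, the library with more reads in the peak windows, was chosen in part for being high there. Those reads do not measure sequencing depth, and depth and condition cannot be told apart with 1 library each. The 3 called in both were the Id1 peak at the start, the Bmpr1b intron 7 peak and the Acvrl1 upstream peak.

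The rest of the pathway was described from lists of 70 further genes. Of these, 47 had a peak, with a median log2 ratio of -0.12, and 28 were below 0. None was lower past 1.5-fold, beside 6.6% of all genes, and 1 was higher, beside 1.54%. The latter was the activin βE subunit gene Inhbe, from 1 weak peak with 13.6 in NC and 22.4 in SiPiezo2 (0.68, counting interval -0.05 to 1.41). The counting interval lay below the median of all genes at 3 of the 47 (6.38%, beside 9.01% of all genes) and above it at 6 (12.8%, beside 8.47%). Those below were Bmp1, Crim1 and Smad4. Bmp1, a metalloproteinase that cleaves chordin and procollagens, had 229 in NC and 169 in SiPiezo2 (-0.44, counting interval -0.66 to -0.23, widened interval -0.75 to -0.13), a ratio like those of Acvr1 and Fstl1. The transmembrane BMP regulator gene Crim1 had 314 and 256 (-0.29, counting interval -0.47 to -0.12), and the common SMAD gene Smad4 had 94.9 and 68.4 (-0.47, counting interval -0.81 to -0.13). Those above were Gata4, Htra1, Inhbe, Smad3, Tgfbr3 and Tll2. The secreted protease gene Htra1 had 300.2 and 373 (0.31, counting interval 0.15 to 0.47), Smad3, which relays TGF-β and activin signals, 570.3 and 658 (0.21, counting interval 0.09 to 0.32), and the cardiac transcription factor gene Gata4 261 and 306 (0.23, counting interval 0.05 to 0.40). With the widened interval, Bmp1 was left below, and Gata4, Htra1 and Smad3 above. By role, the median was 0.004 for 6 ligand genes, -0.06 for 3 receptor genes, -0.19 for 17 antagonist and modulator genes, -0.22 for 15 genes of SMADs and other intracellular parts and 0.05 for 8 BMP target genes. The receptor-regulated SMAD genes of the BMP branch did not pass 1.5-fold, with Smad1 at 78.2 and 64.4 (-0.28), Smad5 at 50.1 and 52.4 (0.06) and Smad9 at 35.3 and 45.2 (0.35). Smad6 and Smad7, inhibitory SMAD genes that BMP signals induce, had 321 and 304 (-0.07) and 293 and 248 (-0.24).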

How the data were processed

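ATAC-seq was made from 1 library per condition (NC, SiPiezo2). The labels name BWA 0.7.12 and mm10, but gene starts in the table match GRCm39: only 2 of 30 genes of the set start within 1 kb of their GRCm38 position. The methods describe minced tissue and another kit than the labels do.

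The authors deposited 1 table of peaks with a normalized signal (read density) per library, fitted on peaks called in both. Its log2 and p-value columns are the authors' own comparison and were not used. Whole reads per 2000-bp window were recovered from the densities (whole within 0.1 read for 100% of 63316 peaks, taking 1 read per window as added by the normalization, which the table does not show). They gave 4615335 and 2754046 reads, and 95% Clopper-Pearson intervals of the SiPiezo2 share were moved to the normalized scale. A pseudocount of 1 and a threshold of 1.5-fold were used. With 1 library each, no test was made.

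The members and gene lists were chosen with earlier results of these data known. Members were described in full where past 1.5-fold or where the counting interval left out the median of all genes, and other pathway genes were named where past 1.5-fold. Pathway genes named for their intervals, and the SMAD genes, were chosen after seeing the data. Named peaks were promoter peaks and the 5 lowest and 5 highest ratios at or over the median density. Peaks with other values that are given for a described gene, and the intervals' widening, were chosen after seeing the data. Sums over a gene count reads in overlapping windows more than once (18 of the 103 peaks have such a window). Promoter sequences are RefSeq's (GRCm38.p6). Procedures were tested on simulated data. The tools were scipy 1.17.1, pandas 2.3.3, numpy 2.4.6 and matplotlib 3.10.9 in Python 3.11.15.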

Additional observations from a re-analysis of the deposited data

How the results depend on the processing

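Values were computed again under up to 12 planned settings and 3 added after seeing the data, where the setting applies: the 2-fold threshold to counts only, choices of peaks per gene to gene values only, and leaving out the lowest peak to 6 genes. The median log2 ratio of the genes (-0.11) was 0.027 with median-of-ratios scaling, -0.022 with the same total density, 0.031 with trimmed mean scaling and -0.022 with recovered reads at the same total, where the median of all genes was 0.04, -0.01, 0.05 and 0.03. It was -0.011 with promoter peaks only and 0.032 with peaks called in both libraries. The number of genes lower past 1.5-fold (3) was 1 under each of the 3 scalings and with recovered reads (Chrdl1), 1 with peaks within 10 kb of a start (Fst), 1 at 2-fold (Chrdl1), 0 with promoter peaks only and 5 with the strongest peak only. Under the scalings and the recovered reads, 3.17% to 4.54% of all genes were lower and 2.70% to 4.19% higher. The number of peaks lower past 1.5-fold (16) was 3 with peaks called in both libraries and 4 at 2-fold, and the number higher (0) was 1 with median-of-ratios scaling, with trimmed mean scaling and with recovered reads. The number of genes with the counting interval below the median of all genes (6) was 0 with promoter peaks only and 4 to 7 otherwise, and above it (0) 1 with a pseudocount of 0.1 (Id4) and 2 with distal peaks added (Gdf10 and Id4). With the widened interval the number below (3) was 0 with promoter peaks only or peaks within 10 kb, 5 without the weakest 25% of peaks and 1 with separate windows. Of 372 values of single genes, 348 stayed inside the gene's counting interval and 24 left it, while 54 values, at 18 genes, had the other sign. Id1 was -0.06 or -0.93 when only its upstream peak or only the peak at its start was kept, so that no window overlapped. Id3 was -0.45 with its distal peak, called in NC only, added. The causes were not tested. Depth limits single peaks most, at a median of 69 and 40 reads. No paired analysis was possible because each condition has 1 library, which also leaves no replicate to omit.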

Other observations

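Peaks in distal intergenic DNA have no gene symbol in the table and were set beside the genes by their nearest annotated start, a choice made after seeing the data. By this measure 64 such peaks lay nearest to 22 of the 38 genes, with a median log2 ratio of -0.26 beside -0.18 for all 19430 distal intergenic peaks. Of the 64, 4 (6.25%) were lower past 1.5-fold, where 17.3% of all were, and 4 (6.25%) were higher, where 4.02% were.

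At Id3, whose peak at the start had a log2 ratio of -0.12, a distal peak 3.8 kb away (chr4:135874805-135875145) had 81.8 in NC (213 reads) and 42.5 in SiPiezo2 (64 reads). Its log2 ratio was -0.93 (counting interval -1.36 to -0.52), a value like that at the start of Id1. The distal Id3 peak was called in the NC library only, and so entered the table through the library where it is high. The Id1 peak was called in both libraries. At Bambi, all 7 distal peaks, 40.4 to 259.9 kb away, were lower in SiPiezo2. They summed to 235 in NC and 173 in SiPiezo2 (-0.44). Those 120.7 and 128.2 kb away (-0.32 and -0.52) were called in both libraries, and the others in NC only. Some windows of the 7 peaks overlap. With separate windows, 5 gave -0.43 (counting interval -0.70 to -0.17) or -0.52 (-0.79 to -0.25), by which peak of a pair was kept. The promoter peak stood at 0.07. The distal peaks of Acvr1b, 2 in number, have overlapping windows and gave -0.57 (counting interval -1.13 to -0.04) and -0.39 (-0.91 to 0.11) singly. The former was called in NC only and the latter in both libraries. Bmper had 15 distal peaks that summed to 340.1 and 333 (-0.03, or -0.12 and -0.10 over 14 with separate windows), beside -0.32 for the 13 peaks within the gene.

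Some genes without an assigned peak had distal ones. Bmp7, a ligand much studied in fibrosis, had 5 that summed to 112 and 105 (-0.09, or -0.02 and 0.02 over 4 with separate windows), Gdf10 had 3 at 52.2 and 66.1 (0.33), and Inhbb had 3 at 51.1 and 61.5 (0.26). The peaks of Gdf10 and Inhbb have separate windows. The counting interval of Gdf10, -0.05 to 0.72, lay above the median of all genes (-0.09) and that of all distal peaks (-0.18), and that of Inhbb, -0.14 to 0.66, above the latter only. The 1 peak nearest to Bmp2 lay 477757 bp from it, at 13.1 and 12.6. Whether any distal peak acts on the nearest gene was not tested.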
